A study of Rattus norvegicus with 36 samples.

Results

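Type I pneumocytes are the broad, very thin epithelial cells that cover most of the alveolar surface and form, with the capillary endothelium beneath them, the barrier through which gas diffuses. They carry water channels, caveolae and cytoskeletal anchors and are thought to be more easily injured than the cuboidal type II pneumocytes, which secrete surfactant and can divide to replace them. Inhaled crystalline silica is deposited in the alveoli, where macrophages take it up. The gene set described here consists of Ager, Aqp5, Clic5, Pdpn, Hopx, Cav1, Cav2 and Rtkn2, 8 genes whose products are used as markers of type I cells, and its members were found by gene symbol in the array annotation. Each was represented by 1 probe, and all 8 were among the 9078 tested genes, out of 13315 genes with a symbol on the array.

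Total RNA from whole lung of male CDF Fisher 344 rats was hybridised to 36 Illumina rat arrays, 1 per rat. The labels give an age of 3 months in every group, for 3, 6 and 12 weeks of exposure alike. Whether this was the age at the start or at sampling is not clear from them. The 6 groups were air for 3 weeks, crystalline silica for 3 weeks, air for 6 weeks, silica for 6 weeks, air for 12 weeks and silica for 12 weeks, with n = 6 rats each. Silica was inhaled at 15 mg/m3, for 6 hours a day and 5 days a week, while the control rats breathed air without silica over the same weeks. No transgene or other agent was part of any group, and because whole lung was used, fewer cells of a type and less RNA per cell cannot be told apart.

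Levels below are background-corrected, quantile-normalised log2 intensities, so a difference of 1 is a 2-fold difference, and levels of different probes are not set against each other. Raw mean intensity per array ran from 345 to 519, and 48.7% to 53.1% of probes were detected per array. The first principal component of the tested genes took up 54.5% of the variance and separated the 12 arrays of week 6, with scores of 22.7 to 29.8, from 22 of the others, with scores of -24.9 to -8.08. An array of the 3-week air group (replicate 5, score 8.7) and one of the 12-week silica group (replicate 3, score 15.1) stood apart from their groups. Where leaving out these arrays changed a member's call or moved its silica effect within a week by over 1.5 times, the value without them is given. For the differences of effects between 12 and 3 weeks, such values are given for Clic5 and Cav1 only. The labels do not say which arrays were processed together, so the week of exposure and an array batch cannot be told apart, and silica was compared only with air of the same week. Heart muscle markers, which a piece of lung can carry along, varied widely within every group, from a sum of 167 to 10127 linear units over 6 genes, and no heart gene was called in a silica comparison.

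The stretch of 250 bases before the transcription start is shown for Aqp5 and Clic5, the members with the largest changes at 12 weeks. The sequences are those of RefSeq for build GRCr8, read 5′ to 3′ along the strand of the gene, and capitals mark matches to the GC box GGGCGG or its reverse complement.
Aqp5, chr7:132601278-132601527, plus strand: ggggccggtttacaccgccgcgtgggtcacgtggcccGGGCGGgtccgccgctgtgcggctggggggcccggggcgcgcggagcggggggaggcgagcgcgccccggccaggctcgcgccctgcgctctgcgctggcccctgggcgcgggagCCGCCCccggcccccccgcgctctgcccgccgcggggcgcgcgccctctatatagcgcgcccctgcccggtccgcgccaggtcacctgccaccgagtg
Clic5, chr9:24310965-24311214, minus strand: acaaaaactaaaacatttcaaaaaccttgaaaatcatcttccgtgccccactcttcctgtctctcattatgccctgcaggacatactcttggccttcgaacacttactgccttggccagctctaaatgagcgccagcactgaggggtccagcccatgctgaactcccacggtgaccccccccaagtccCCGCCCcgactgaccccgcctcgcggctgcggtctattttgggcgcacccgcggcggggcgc
The Aqp5 window held 2 GC boxes, 213 and 98 bases before the start, and the Clic5 window held 1, at 62 bases. With 83.2% G and C, the Aqp5 window stood at the 99.6 percentile of all windows of that length, whereas the 58.4% of Clic5 stood at the 71.1 percentile. Of the 9 windows listed for the 8 members (Cav1 has 2), 6 held a GC box, compared with 30.5% of all 33469 windows. Motifs of 3 other factors were searched on both strands. The TEAD motif GGAATG and the NKX2-1 motif CTCAAG each had 0 matches in the 9 windows, and stood in 12.1% and 13.3% of all windows. The AP-1 motif TGANTCA had 1 match, 145 bases before the start of Cav2, and stood in 6.34% of all windows. A match describes letters in this window and no binding was measured.

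Silica-exposed lungs had lower levels of several type I genes at each week, and no member was called higher. At 3 weeks 3 of the 8 members were called lower by limma at an adjusted p under 0.05 (Aqp5, Hopx and Cav1), where 6.08% of all tested genes were called lower and 7.49% higher. At 6 weeks 3 were called lower (Ager, Aqp5 and Clic5), against 8.52% of all genes lower and 8.79% higher. At 12 weeks 4 were called lower (Ager, Aqp5, Clic5 and Hopx), against 14.2% of all genes lower and 11.7% higher. Aqp5 was the member called at every week. The median log2 change of the 8 members was -0.14, -0.18 and -0.15 at 3, 6 and 12 weeks, and that of all tested genes was -0.0013, -0.016 and -0.016. The sign was negative for 8, 7 and 7 of the 8 members. The level in every silica rat lay below that in every air rat for 1 member at 3 weeks, 2 at 6 weeks and 3 at 12 weeks, a separation that 2.3%, 4.65% and 5.77% of all tested genes showed. These counts depended on the normalisation. With each array scaled to a common median in place of quantile normalisation, 1, 0 and 3 members were called lower, and all genes called lower and higher numbered 92 and 574 at 3 weeks (552 and 680 as reported), 205 and 487 at 6 weeks (773 and 798), and 1255 and 604 at 12 weeks (1292 and 1061). When only the 12 arrays of week 3 entered the fit, 0 members were called at that week by limma.

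**Figure D1:**
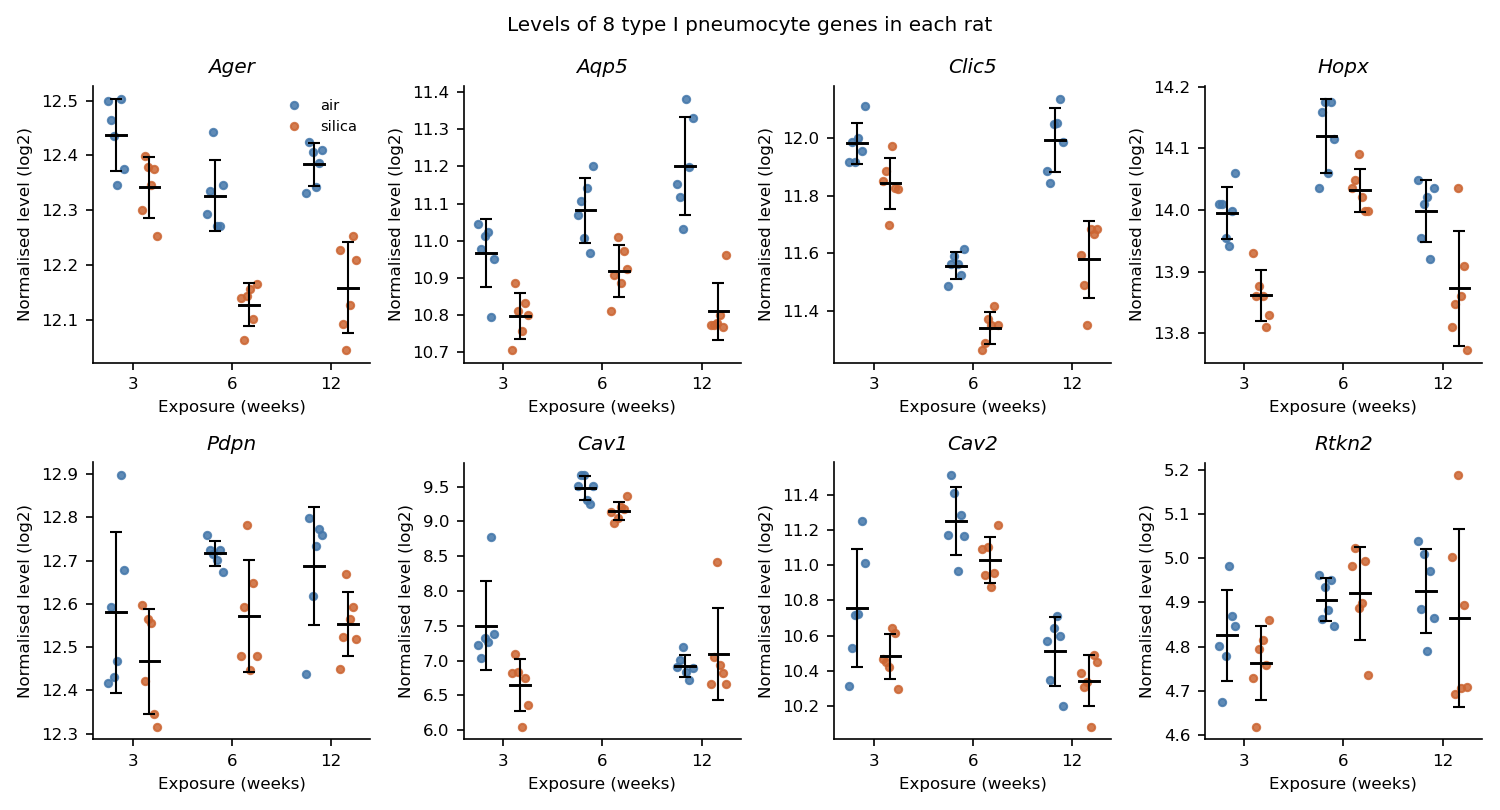
Normalised log2 level of each of the 8 genes (vertical axes, 1 panel per gene, each with its own scale) in every rat against weeks of exposure, air in blue and silica in orange, with the group mean and SD in black (n = 6). Ager and Clic5 show no overlap between air and silica at 6 and 12 weeks, and in the Cav1 panel the 6-week arrays and 1 rat each of the 3-week air and 12-week silica groups lie above the rest.

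Aqp5 encodes the water channel of the apical type I cell membrane. At 3 weeks its level ran from 10.79 through a median of 10.99 to 11.04 in air and from 10.71 through 10.81 to 10.89 in silica. The single air rat at 10.79 brought the groups into overlap. At 6 weeks the air values were 10.97, 11.09 and 11.20 (lowest, median, highest) and the silica values 10.81, 10.92 and 11.01, again overlapping. At 12 weeks they were 11.03, 11.18 and 11.38 in air and 10.77, 10.78 and 10.96 in silica, and the groups no longer overlapped. In limma's fit the log2 change was -0.17 ± 0.05 (SE, adjusted p = 0.0292) at 3 weeks, -0.16 ± 0.05 (adjusted p = 0.0291) at 6 weeks and -0.39 ± 0.05 (adjusted p = 9.93e-07) at 12 weeks, the last being 1.31-fold lower. The calls at 3 and 6 weeks were narrow: leaving out any of 5 rats at 3 weeks or any of 6 rats at 6 weeks took them past the threshold, with adjusted p up to 0.0697 and 0.0853. Under median scaling the changes were -0.074 (adjusted p = 0.648) at 3 weeks and -0.13 (adjusted p = 0.488) at 6 weeks. The air means were 10.97, 11.08 and 11.20 at 3, 6 and 12 weeks, and the silica means 10.80, 10.92 and 10.81.

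Clic5 encodes a chloride intracellular channel protein that binds ezrin and the cortical actin skeleton. At 3 weeks its level was 11.92, 11.97 and 12.11 (lowest, median, highest) in air and 11.70, 11.84 and 11.97 in silica. At 6 weeks it was 11.49, 11.56 and 11.62 in air and 11.27, 11.35 and 11.42 in silica. At 12 weeks it was 11.84, 12.02 and 12.14 in air and 11.35, 11.63 and 11.69 in silica. A single silica rat, the highest of its group, reached into the air range at 3 weeks, and at 6 and 12 weeks every silica rat lay below every air rat. By limma the log2 change was -0.14 ± 0.05 (SE, adjusted p = 0.0830) at 3 weeks, -0.21 ± 0.05 (adjusted p = 0.00402) at 6 weeks and -0.41 ± 0.05 (adjusted p = 4.98e-07) at 12 weeks. The 12-week value is 1.33-fold lower and was the largest change of any member at 12 weeks. Air levels were not constant, and the 6-week air mean of 11.56 lay below those of 11.98 at 3 weeks and 11.99 at 12 weeks.

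Ager encodes the receptor for advanced glycation end products (RAGE), which in the lung is concentrated on the basal side of type I cells, where it takes part in adhesion to the matrix. At 3 weeks its level was 12.35, 12.45 and 12.50 (lowest, median, highest) in air and 12.25, 12.36 and 12.40 in silica, with overlap. At 6 weeks it was 12.27, 12.31 and 12.44 in air and 12.06, 12.14 and 12.16 in silica. At 12 weeks it was 12.33, 12.40 and 12.43 in air and 12.04, 12.17 and 12.25 in silica. At 6 and 12 weeks the groups did not overlap. The log2 change in limma was -0.10 ± 0.04 (SE, adjusted p = 0.104), -0.20 ± 0.04 (adjusted p = 0.000352) and -0.22 ± 0.04 (adjusted p = 4.98e-05) at the 3 weeks in turn. Ager, Aqp5 and Clic5 were called at 12 weeks under all 14 alternative settings and with any 1 of the 12 rats left out, the highest adjusted p being 0.00426, 0.000737 and 0.00104.

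Hopx encodes a small homeodomain protein without DNA binding of its own that is expressed as alveolar progenitors take on type I fate. At 3 weeks its level was 13.94, 14.00 and 14.06 (lowest, median, highest) in air and 13.81, 13.86 and 13.93 in silica, the only member whose groups did not overlap at that week. At 6 weeks it was 14.04, 14.14 and 14.18 in air and 14.00, 14.03 and 14.09 in silica. At 12 weeks it was 13.92, 14.01 and 14.05 in air and 13.77, 13.85 and 14.04 in silica, where a single silica rat, the same replicate 3 that stood apart over all genes, reached into the air range. The log2 change in limma was -0.13 ± 0.04 (SE, adjusted p = 0.0156), -0.09 ± 0.04 (adjusted p = 0.115) and -0.13 ± 0.04 (adjusted p = 0.0137) at 3, 6 and 12 weeks. Under median scaling the 3-week value turned to 0.0084 (adjusted p = 0.949) and the 12-week call was lost (adjusted p = 0.214). Of 14 settings, 3 changed the result at 3 weeks, 1 at 6 weeks (lowest limma adjusted p = 0.0106) and 3 at 12 weeks.

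Pdpn encodes podoplanin, the mucin-like apical protein of type I cells also known as T1-alpha. Its level was 12.42, 12.53 and 12.90 (lowest, median, highest) in 3-week air and 12.32, 12.49 and 12.60 in 3-week silica. At 6 weeks it was 12.67, 12.72 and 12.76 in air and 12.45, 12.54 and 12.78 in silica. At 12 weeks it was 12.44, 12.75 and 12.80 in air and 12.45, 12.54 and 12.67 in silica. The groups overlapped at every week, and the log2 changes of -0.11, -0.14 and -0.13 (SE 0.07 each) did not pass the limma test (adjusted p = 0.303, 0.172 and 0.164). The 95% intervals reached from -0.26 to 0.03, from -0.29 to -0.0019 and from -0.28 to 0.0087, so falls as large as those of Ager are inside them. Without the 3-week air rat that stood apart, which had the highest Pdpn level of its group, the 3-week change was -0.050 (adjusted p = 0.7095).

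**Figure D2:**
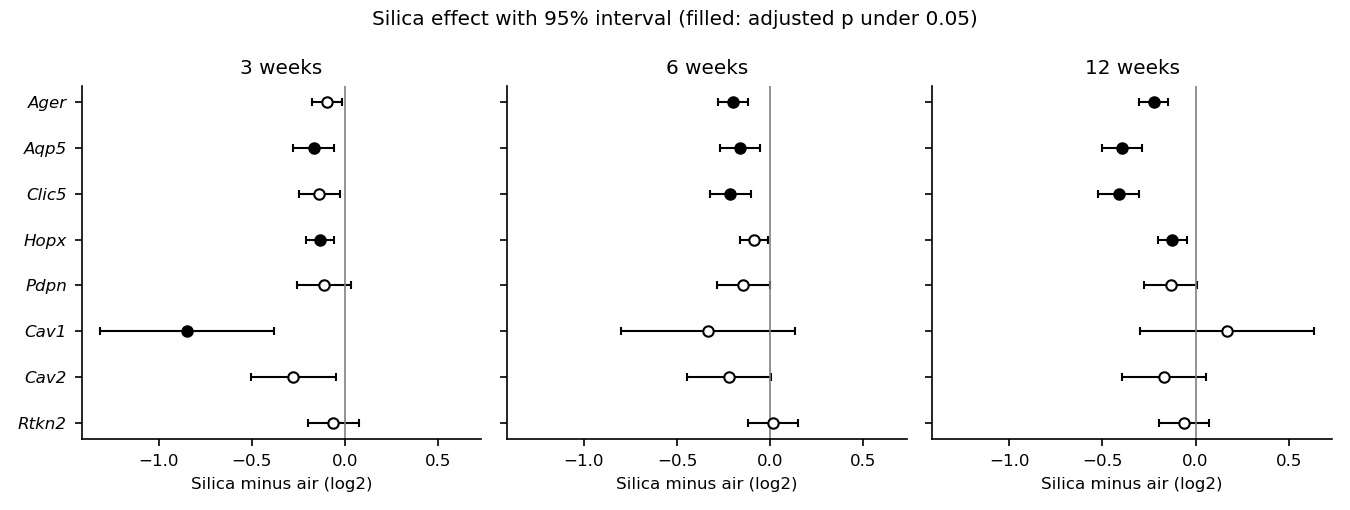
Log2 change, silica minus air of the same week (horizontal axis), for each of the 8 genes at 3, 6 and 12 weeks, with the 95% interval of limma's fit; filled points had an adjusted p under 0.05. Ager, Aqp5 and Clic5 lie at -0.22, -0.39 and -0.41 at 12 weeks, while Cav1 has the widest intervals and moves from -0.85 at 3 weeks to 0.17 at 12 weeks; the Rtkn2 points come from a probe near background.

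Cav1 and Cav2 encode caveolins, which coat the caveolae that are dense in type I cells and also in endothelium, and both genes lie on chromosome 4. Cav1 at 3 weeks was 7.03, 7.30 and 8.78 (lowest, median, highest) in air and 6.05, 6.79 and 7.09 in silica. At 6 weeks it was 9.26, 9.51 and 9.67 in air and 8.98, 9.15 and 9.36 in silica. At 12 weeks it was 6.72, 6.90 and 7.20 in air and 6.67, 6.88 and 8.42 in silica. The 6-week levels lay above all others in both groups, and the highest 3-week air value and the highest 12-week silica value were on the 2 arrays that stood apart. The Cav1 level followed the score on the first principal component with a Pearson r of 0.98 over 36 arrays and 0.89 over the 24 arrays without week 6, given as a description because the arrays share groups and week and Cav1 is 1 of the genes behind the score. Its share in the silica result was not tested.

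At 3 weeks Cav1 fell by 0.85 ± 0.23 on the log2 scale (SE, limma adjusted p = 0.0110), which is 1.80-fold. Without the air rat that stood apart the change was -0.59 (adjusted p = 0.0456). With background estimated from all probes it was -0.38 and no longer called (adjusted p = 0.1002). The change of -0.34 ± 0.23 at 6 weeks was not called in the fit of all arrays (adjusted p = 0.376) and was called when only the 12 arrays of week 6 entered the fit (adjusted p = 0.0102) or when the 2 arrays that stood apart were left out (adjusted p = 0.0339). At 12 weeks the change was 0.17 ± 0.23 (adjusted p = 0.635), and -0.097 without the silica rat that stood apart (adjusted p = 0.774). The detection p-values of the Cav1 probe did not lie on the grid of steps shared by most probes, and its raw intensity ran from 98.5 to 730, so its levels rest more on the background estimate than those of the brighter members.

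**Figure D3:**
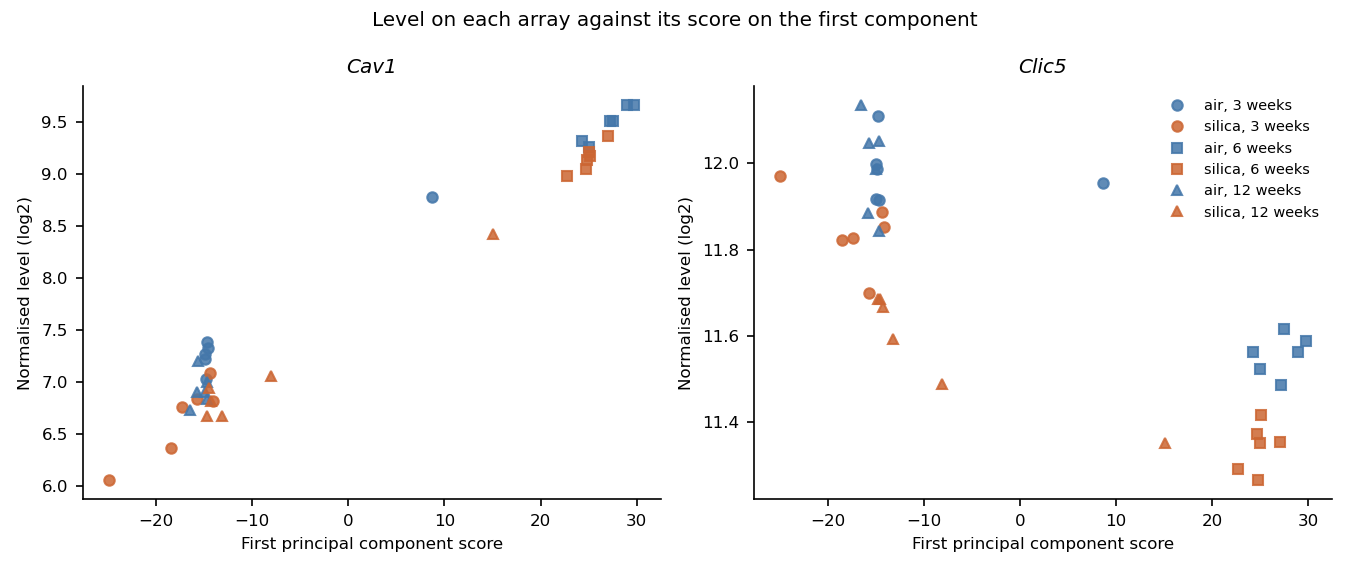
Normalised log2 level of Cav1 (left) and Clic5 (right) on each of the 36 arrays against the score of the array on the first principal component (no unit), with air in blue, silica in orange, circles for 3, squares for 6 and triangles for 12 weeks. Cav1 rises along the score (r = 0.98), and the air circle at 8.7 and the silica triangle at 15.1 lie between the 6-week arrays and the rest.

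Cav2 at 3 weeks was 10.31, 10.72 and 11.26 (lowest, median, highest) in air and 10.29, 10.46 and 10.64 in silica. At 6 weeks it was 10.97, 11.23 and 11.52 in air and 10.87, 11.02 and 11.23 in silica, and at 12 weeks 10.20, 10.58 and 10.71 in air and 10.08, 10.36 and 10.49 in silica. The groups overlapped at each week. The log2 changes were -0.28 ± 0.11 (SE), -0.22 ± 0.11 and -0.17 ± 0.11, and none passed the limma test (adjusted p = 0.0957, 0.192 and 0.284). The change at 3 weeks moved with single rats of the air group. Without replicate 1, the lowest, it was -0.37 and was called (adjusted p = 0.0207), and without replicate 5, the highest and the array that stood apart, it was -0.18 (adjusted p = 0.318).

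Rtkn2 encodes rhotekin 2. Its probe was detected on 19 of 36 arrays: in 2 of 6 air and 0 of 6 silica rats at 3 weeks, 5 and 4 at 6 weeks, and 5 and 3 at 12 weeks. Levels ran from 4.62 in 3-week silica to 5.19 in 12-week silica, with group medians between 4.78 and 4.94. As the probe was not well above background in any 3-week silica rat, no fold is given for that week. The log2 change was 0.014 ± 0.067 (SE) at 6 weeks and -0.061 ± 0.067 at 12 weeks, neither of which passed the limma test (adjusted p = 0.930 and 0.545). Without the 12-week silica rat that stood apart the 12-week change was -0.13 (adjusted p = 0.136).

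Across all 6 groups the order of mean levels differed between members. Ager ran from 12.44 in 3-week air, through 12-week air, 3-week silica and 6-week air, to the 2 groups of longer silica exposure at 12.16 and 12.13. In that order the step of 0.17 from 6-week air to 12-week silica was the one larger than the pooled SD of its neighbours. For Aqp5 the 3 air groups came first and the 3 silica groups last, and 3-week air and 6-week silica, next to each other, differed by less than their pooled SD. The order of Clic5 was 12-week air, 3-week air, 3-week silica, 12-week silica, 6-week air and 6-week silica. The 2 air groups at the top, and likewise 12-week silica and 6-week air, differed by less than their pooled SD. Hopx, Cav1 and Cav2 were highest in 6-week air, with 6-week silica next. Neighbouring groups of Pdpn and of Rtkn2 in this order all differed by less than their pooled SD. The 3 air groups differed from each other for 6 members by limma's F test, as for 75.8% of all tested genes. These were Ager (adjusted p = 0.0380), Aqp5 (0.000833), Clic5 (4.81e-09), Hopx (0.00463), Cav1 (3.99e-11) and Cav2 (1.81e-06), while Pdpn and Rtkn2 had adjusted p of 0.167 and 0.321.

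Whether the silica effect changed with time was tested as a difference of effects. Between 12 and 3 weeks 1 member passed the limma test, where 2.86% of all genes did. For Clic5 the effect at 12 weeks was 0.28 ± 0.08 lower on the log2 scale than at 3 weeks, a difference of -0.28 (adjusted p = 0.0438). That call was lost in 11 of 24 fits with 1 rat left out (adjusted p up to 0.0918), without both arrays that stood apart (-0.22, adjusted p = 0.107) and under median scaling (-0.42, adjusted p = 0.0605). The differences for Aqp5 (-0.22 ± 0.08, adjusted p = 0.0792), Ager (-0.13 ± 0.06, adjusted p = 0.159) and Cav1 (1.02 ± 0.32, adjusted p = 0.0669) did not pass. Without both arrays that stood apart the difference for Cav1 was 0.50 (adjusted p = 0.142). Between 6 and 3 weeks 0 members passed the limma test, where 0.0771% of all genes did. Between 12 and 6 weeks 0 members passed, where 0.011% of all genes did. For Aqp5 the difference was -0.23 ± 0.08 (limma adjusted p = 0.218) and for Clic5 -0.20 ± 0.08 (adjusted p = 0.284).

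The 8 members did not vary as one. On levels centred within each week, Aqp5 and Clic5 had a Pearson r of 0.79 over the 36 arrays, Ager and Clic5 0.78, and Ager and Aqp5 0.68. Hopx had r of 0.49 to 0.53 with each of these 3. Cav1 had r of 0.18 to Ager, 0.015 to Aqp5 and -0.05 to Clic5, and Rtkn2, near background, had r of -0.04, -0.04 and -0.02. These correlations describe arrays that share treatment groups. The genes whose centred levels were most like the mean of the 8 members were Klf7 (r = 0.89), Gpcpd1, Ncl, Enpp1 and Tek (0.85), and the most opposed were Atp6v0a1 (r = -0.91), Cib1, Tmod4, Grn and Trpv2 (-0.88). This mean is of unscaled levels, and Cav1 had the largest SD of the members in 3-week air (0.64) and 12-week silica (0.67). With Cav1 left out, the genes most like the mean were different ones, named at the end. Tspan7 (r = 0.96) and Cyth3 were most like Cav1. For Clic5 these were S100a16 (r = 0.89) and Adgrl4, for Aqp5 Cyb5r3 (r = 0.88) and S100a16, and for Ager Nipal2 (r = 0.90) and Emcn. Hopx was most like Pbx3 (r = 0.79) and Ehd4, Pdpn like Magi3 (r = 0.76) and Cbx3, Cav2 like Dr1 (r = 0.82) and Blzf1, and Rtkn2 like Pkp3 (r = 0.65) and Smim14.

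A wider list of 25 other type I pneumocyte markers had 22 tested genes, and these were also mostly lower in silica. At 3 weeks 4 were called lower and 0 higher, at 6 weeks 7 and 0, and at 12 weeks 12 and 1, with median log2 changes of -0.13, -0.15 and -0.17. Of all tested genes 6.08%, 8.52% and 14.2% were called lower at these weeks. The change was negative for 16, 20 and 17 of the 22 markers. Col4a3, a chain of the alveolar basement membrane collagen, had a log2 change of -0.64 ± 0.13 (SE, limma adjusted p = 0.000743) and Tspan8, a tetraspanin, -0.24 ± 0.07 (adjusted p = 0.0166) at 3 weeks. At 6 weeks Gprc5a changed by -0.27 ± 0.05 (adjusted p = 0.000293) and the cytochrome gene Cyp4b1 by -0.29 ± 0.06 (adjusted p = 0.000981). At 12 weeks Cyp4b1 changed by -0.41 ± 0.06 (adjusted p = 8.50e-06) and Agrn, encoding the matrix proteoglycan agrin, by -0.40 ± 0.06 (adjusted p = 3.34e-06). Mal2 was the gene called higher, at 0.28 ± 0.10 (adjusted p = 0.0420), and the count higher was 0 in 4 of 14 settings and with 8 of 12 rats left out in turn. Under median scaling 2 of the 22 tested genes were called lower at 3 weeks and 3 at 6 weeks. Tspan8 at 3 weeks (limma adjusted p = 0.291) and Gprc5a (0.102) and Cyp4b1 (0.0791) at 6 weeks were not among them.

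**Figure D4:**
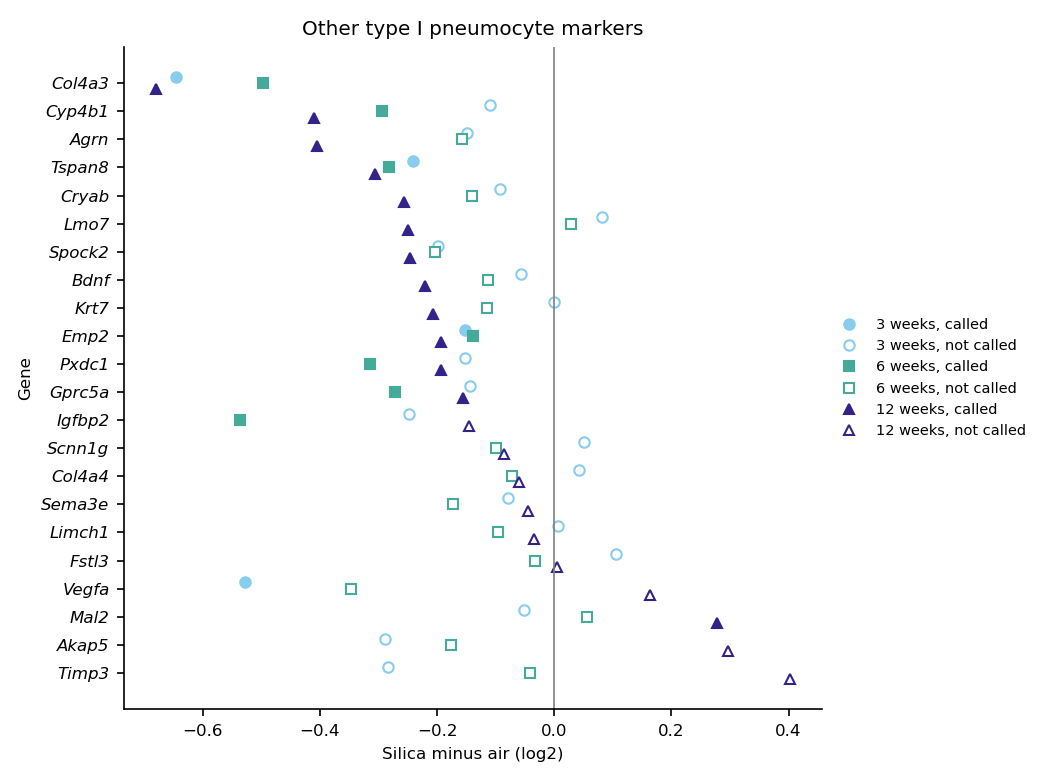
Log2 change, silica minus air (horizontal axis), of the 22 tested other type I pneumocyte markers (vertical axis) at 3 weeks (circles), 6 weeks (squares) and 12 weeks (triangles); filled symbols had a limma adjusted p under 0.05. Filled symbols number 4, 7 and 13 at the 3 times, and all but Mal2 at 12 weeks lie left of 0.

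The relatives of the members did not all move with them. Among 5 tested other aquaporins, the endothelial water channel Aqp1 was lower at each week (log2 changes of -0.18, -0.18 and -0.29 ± 0.06, SE, limma adjusted p = 0.0412, 0.0317 and 0.000438), and Aqp4 was lower at 6 weeks (-0.42 ± 0.12, adjusted p = 0.0107). Among 4 tested other chloride intracellular channel genes, Clic1 and Clic2 were higher at each week and Clic3 was lower at 12 weeks. Clic1 changed by 0.42, 0.28 and 0.42 ± 0.07 (adjusted p = 0.000127, 0.00537 and 5.17e-05), Clic2 by 0.26, 0.30 and 0.27 ± 0.07 (adjusted p = 0.0167, 0.00442 and 0.00648), and Clic3 by -0.33 ± 0.08 (adjusted p = 0.00132). Among 9 tested caveolar genes, 1, 2 and 0 were called lower at 3, 6 and 12 weeks and 0 higher. These were Ehd2, an ATPase at the caveolar neck, at 3 weeks (-0.36 ± 0.10, adjusted p = 0.0120) and 6 weeks (-0.30 ± 0.10, adjusted p = 0.0272), and Cavin3, a caveolar coat gene, at 6 weeks (-0.27 ± 0.06, adjusted p = 0.00175). Several of these calls were lost under median scaling, namely Aqp1 at 3 weeks (adjusted p = 0.551) and 6 weeks (0.302), Ehd2 at 3 weeks (0.0940) and 6 weeks (0.0995), and Clic2 at 12 weeks (0.104), without a change of sign. Median scaling over detected probes also took Aqp1 past the threshold at 3 weeks (adjusted p = 0.198) and 6 weeks (0.0732). The count of lower aquaporins at 3 weeks was 0 to 1 with 1 rat left out.

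Genes around the receptor that Ager encodes moved in both directions. Of 10 tested ligands and signalling partners, 3 were called higher at each week, and 1, 3 and 5 were called lower at 3, 6 and 12 weeks. With 1 rat left out the lower counts were 1 to 2, 1 to 4 and 2 to 5, and under other settings 0 to 1, 0 to 4 and 3 to 5. The ligand gene S100a8, a neutrophil alarmin, rose by 0.48, 0.74 and 0.97 ± 0.14 (SE, log2, limma adjusted p = 0.0169, 0.000158 and 2.43e-06), and C1qa, a complement gene of macrophages, by 0.46, 0.58 and 0.69 ± 0.09 (adjusted p = 0.000418, 5.87e-06 and 2.92e-07). App was lower at 3 weeks (-0.16 ± 0.04, adjusted p = 0.0112) and 6 weeks (-0.20 ± 0.04, adjusted p = 0.000840). S100a1 was lower at 6 weeks (-0.24 ± 0.07, adjusted p = 0.0123), and S100a4 (-0.31 ± 0.07, adjusted p = 0.00134) and S100a6 (-0.24 ± 0.06, adjusted p = 0.00218) were lower at 12 weeks. Hmgb1, S100a9 and Diaph1 were detected on 0 arrays and were not tested. Of 8 tested binding partners of podoplanin, 1, 2 and 2 were called higher and 0, 0 and 1 lower at 3, 6 and 12 weeks, and the lower count at 12 weeks was 0 to 2 with 1 rat left out. The galectin gene Lgals3 was higher at each week (0.49, 0.68 and 0.56 ± 0.10, adjusted p = 0.000874, 3.80e-06 and 6.48e-05) and Cd44 at 6 weeks (0.42 ± 0.07, adjusted p = 8.20e-05) and 12 weeks (0.33 ± 0.07, adjusted p = 0.000970). Median scaling took App at 3 and 6 weeks past the threshold (limma adjusted p = 0.551 and 0.127). It did the same for S100a1 at 6 weeks (0.248) and for S100a6 (0.0536) and Cd44 (0.110) at 12 weeks.

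Ion transport and junction genes of the alveolar epithelium were mixed as well. Of 7 tested ion transport genes, Atp1b1, the beta subunit of the sodium pump, was higher at each week (0.35, 0.32 and 0.27 ± 0.07, SE, limma adjusted p = 0.00113, 0.00186 and 0.00510). The sodium channel subunit gene Scnn1a was lower at 12 weeks (-0.21 ± 0.06, adjusted p = 0.0113) and the chloride channel gene Ano1 at 6 weeks (-0.29 ± 0.08, adjusted p = 0.0136). Of 10 tested junction genes, 1, 3 and 3 were higher and 0, 1 and 2 lower at 3, 6 and 12 weeks. The gap junction gene Gja1 rose at each week, by 0.27, 0.33 and 0.71 ± 0.07 (adjusted p = 0.00513, 0.000445 and 7.41e-10). Cldn3 was higher (0.33 ± 0.09, adjusted p = 0.00993) and Tjp1, a tight junction scaffold gene, lower (-0.19 ± 0.06, adjusted p = 0.0194) at 12 weeks. Pard3, a polarity gene, was lower at 6 weeks (-0.17 ± 0.05, adjusted p = 0.0210) and 12 weeks (-0.21 ± 0.05, adjusted p = 0.00364). Median scaling took Atp1b1 at 12 weeks (adjusted p = 0.176), Pard3 at 6 weeks (0.255) and Tjp1 (0.0529) past the threshold.

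Regulators of type I fate and the Hippo pathway, whose coactivators YAP and TAZ act with TEAD factors, had 12 tested genes of 20. The change was negative for 8, 8 and 6 of the 12 at 3, 6 and 12 weeks. At each week 2 of the 12 were called lower, where 6.08%, 8.52% and 14.2% of all tested genes were. These were Ajuba (-0.18, -0.19 and -0.35 ± 0.06, SE, limma adjusted p = 0.0355, 0.0207 and 2.33e-05) and the YAP target Ccn2 (-0.28, -0.24 and -0.24 ± 0.07, adjusted p = 0.00723, 0.0166 and 0.0142). Both lost their calls at 3 and 6 weeks under median scaling (Ajuba adjusted p = 0.648 and 0.344, Ccn2 0.266 and 0.267) and under median scaling over detected probes. With 1 rat left out the count was 1 to 2 at 3 weeks, where 8 of 12 rats changed it, and 0 to 2 at 6 weeks. Nkx2-1, the lung lineage factor, was higher at 12 weeks (0.41 ± 0.12, adjusted p = 0.0120), and the other 9 were not called at that week. In the list for the transitional state that type II cells pass through on the way to type I cells, 11 genes were tested, of which 2 were called higher and 1 lower at each week. Those higher were Lgals3 at each week, Ndrg1 at 3 and 6 weeks (0.18 ± 0.05 at both, adjusted p = 0.0236 and 0.0228) and Anxa1 at 12 weeks (0.16 ± 0.06, adjusted p = 0.0474). The keratin gene Krt8, a marker of that state, was lower at 6 weeks (-0.15 ± 0.04, adjusted p = 0.0110) and 12 weeks (-0.16 ± 0.04, adjusted p = 0.00419), and Hbegf was lower at 3 weeks (-0.24 ± 0.07, adjusted p = 0.0231). Under median scaling the calls of Ndrg1 at 3 and 6 weeks (adjusted p = 0.0856 and 0.253), Krt8 at 6 weeks (0.463), Hbegf (0.160) and Anxa1 (0.332) were lost. The higher count at 12 weeks was 1 to 3 with 1 rat left out and across settings. Lgals3 is also highly expressed in macrophages, and Lgals3 stands in the podoplanin list too.

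Markers of the other cells of the alveolus moved in both directions in these bulk samples. Of 11 tested type II markers, 6, 9 and 8 were called higher at 3, 6 and 12 weeks and 0 lower, and their summed linear level ran from 68219 to 78664 in air rats and from 80704 to 90735 in silica rats. Muc1 rose by 0.47, 0.58 and 0.56 ± 0.08 (SE, log2, limma adjusted p = 0.000137, 2.40e-06 and 3.18e-06) and the protease gene Ctsh by 0.45, 0.45 and 0.50 ± 0.07 (adjusted p = 1.10e-05, 3.88e-06 and 4.90e-07). Of 11 tested endothelial markers, 5, 8 and 9 were called lower and 0 higher, with sums of 50654 to 58761 in air and 42244 to 49691 in silica. Among them Car4 changed by -0.34 ± 0.06 (adjusted p = 6.44e-05) and Emcn by -0.28 ± 0.05 (adjusted p = 0.000252) at 3 weeks, and Vwf by -0.48 ± 0.07 (adjusted p = 1.06e-06) at 12 weeks. Under median scaling 0 endothelial genes were called lower at 3 weeks and 3 at 6 weeks. Of 9 tested alveolar macrophage markers, 6, 7 and 6 were called higher, with sums of 4872 to 8546 in air and 9163 to 15095 in silica, and of 8 neutrophil markers 2, 3 and 3 were called higher, with sums of 1116 to 2189 and 1979 to 4956. Of 9 T and NK cell markers, 2, 6 and 5 were called lower, with sums of 6170 to 8282 in air and 4631 to 6428 in silica. Across settings the T and NK counts were 0 to 3 at 3 weeks, 3 to 6 at 6 weeks and 5 at 12 weeks. The share that these other cells have in the members' lower levels was not tested.

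Set against the type II markers within each array, the members lay lower in silica lungs than in air lungs. The mean log2 level of the 8 members minus that of the 11 type II markers had a median of -1.45 in air and -1.86 in silica at 3 weeks, -1.14 and -1.65 at 6 weeks, and -1.44 and -1.97 at 12 weeks. The 6 silica rats lay below the 6 air rats at each week, with the closest values -1.53 in air and -1.71 in silica at 12 weeks. Against the 11 endothelial markers the same difference had medians of -0.21 and -0.20 at 3 weeks, 0.10 and 0.21 at 6 weeks, and -0.22 and -0.11 at 12 weeks, and air and silica overlapped each time. These differences are of relative probe signals, describe unequal change and by themselves do not say which side moved. Tested singly, 3, 3 and 4 members were called lower at 3, 6 and 12 weeks, against 6.08%, 8.52% and 14.2% of all tested genes. Of the 11 type II markers, 6, 9 and 8 were called higher, against 7.49%, 8.79% and 11.7% of all tested genes. Across settings the counts of the members were 0 to 5, 0 to 4 and 3 to 4. Those of the type II markers were 6 to 7, 8 to 9 and 8 to 9.

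**Figure D5:**
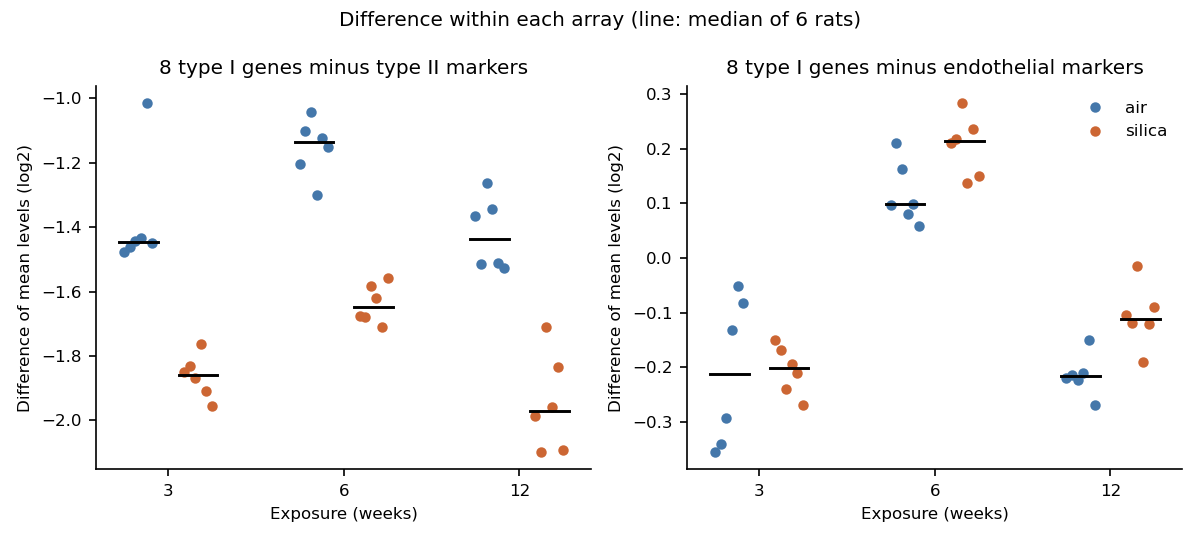
Mean log2 level of the 8 type I genes minus that of 11 type II markers (left) or 11 endothelial markers (right) in each rat (vertical axes) against weeks of exposure, air in blue, silica in orange, line at the median of 6 rats. On the left the silica rats lie below the air rats at each week, with medians of -1.86, -1.65 and -1.97 against -1.45, -1.14 and -1.44; on the right the groups overlap.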

How the data were processed

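The authors deposited raw mean bead intensity values per probe and array, not background-subtracted, with a detection p-value for each, per the file headers. A second deposited table holds the authors' processed log2 values, whose transformation is not given in the sources used here. BeadStudio, lumi and limma are named in the submitters' processing notes, without versions.

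Of 21792 probes, 13388 had a gene symbol. Background was modelled as in neqc of limma 3.58.1 under R 4.3.3 (normexp, offset 16), with its mean and SD taken from the detection p-values of the 21204 probes that lay on a grid of 1/825. Quantile normalisation and log2 followed. Probes with a detection p under 0.05 on at least 6 arrays were kept, and 1 linear model of 6 group means, with 30 residual degrees of freedom, was fitted to 9078 genes. Tests were two-sided and moderated, and Benjamini-Hochberg adjustment ran over all tested genes of a comparison. A gene was called at an adjusted p under 0.05. The fit was tested on simulated data with independent noise and neither shifts between weeks nor arrays that stand apart. That test therefore does not cover these features of the real arrays. Nothing in the labels says that arrays shared a chip, and the number of arrays limits the precision.

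The members and the 25 other gene lists were chosen with earlier results of these data known. All members were named, and of each other list the counts and up to 2 called genes per direction with the most extreme moderated statistic at each week. Alternatives covered background, normalisation, offset, filter, weights, the replicate number as a block, the tested family, the arrays in the fit and each rat left out. The median scaling over detected probes and the fit without 2 arrays were added after seeing the data. 1 result of the podoplanin partner list is not reported here.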

Additional observations from a re-analysis of the deposited data

Results flagged for a closer look

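Of the 48 sets of 6 rats formed by 8 genes and 6 groups, 4 held a rat far from the others by Dixon's test, which chance alone gives in about 1 of 20 sets. Replicate 5 of the 3-week air group was in 2 of them, with the lowest Aqp5 level of its group (10.79, the next being 10.95) and the highest Cav1 level (8.78, the next being 7.39). Replicate 3 of the 12-week silica group had a Cav1 level of 8.42, the next being 7.05. These 2 arrays also stood apart over all tested genes, with scores of 8.7 and 15.1 on the first principal component. Replicate 6 of the 12-week silica group had an Aqp5 level of 10.96, the next being 10.80, and still lay below every air rat of that week. The silica effect on Clic5 differed between 12 and 3 weeks by -0.28 on the log2 scale (limma adjusted p = 0.0438). All 6 silica rats lay below the air mean at both weeks.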

How the results depend on the processing

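Of 385 member effects recomputed under other settings, 353 kept their direction and their side of the threshold, 18 lost a call, 9 gained one and 5 changed sign; of 384 with 1 rat left out, 358 kept both, 22 lost a call, 1 gained one and 3 changed sign. The number of members called lower at 3 weeks, 3 as reported, was 1 under median scaling and under median scaling over detected probes, 5 in the authors' values (Ager and Clic5 added) and 0 in a fit of the 12 arrays from week 3; leaving out 1 rat gave 2 to 3. The median log2 change of the members at 3 weeks was -0.048 under median scaling. At 6 weeks the count was 0 under median scaling and 2 to 3 with 1 rat left out, and at 12 weeks 4 with any rat left out and 3 under median scaling. The count for the difference between 12 and 3 weeks, 1 as reported, was 0 under median scaling, without a detection filter, with array weights and without the 2 arrays that stood apart, 4 under median scaling over detected probes, and 0 to 1 with 1 rat left out. For the air groups it was 5 to 6 with 1 rat left out. Signs changed for Ager (0.020) and Hopx (0.0084) at 3 weeks under median scaling. They changed for Cav1 at 12 weeks with array weights (-0.051), without the 2 arrays and without silica replicate 3 (-0.097 in both; -0.097 to 0.25 with 1 rat left out). They changed for Rtkn2 at 6 weeks under median scaling over detected probes (-0.016) and without silica replicate 2 (-0.0064) or 5 (-0.000752; -0.0064 to 0.051 with 1 rat left out). The cause was not tested. With the replicate number as a block, 3, 3 and 4 members were called lower at 3, 6 and 12 weeks and 5 between air groups; over 90 pairs with the same number the median r of deviations was -0.016, and 7 of 36 samples correlated best with their own number. A chip block was not run, as the headers name no chip. Depth limits Rtkn2, detected on 19 arrays.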

Other observations

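Markers of further lung cell types were tested for the same contrasts. Of 10 fibroblast markers, 3, 3 and 0 were called lower by limma at 3, 6 and 12 weeks, among them Tcf21 at 3 weeks (log2 change -0.20 ± 0.05, SE, adjusted p = 0.0110), which under median scaling was -0.058 (adjusted p = 0.639). The fibroblast counts at 6 and 12 weeks were 1 to 3 and 0 to 2 with 1 rat left out, and 0 to 4 and 0 to 3 across settings. Of 3 lymphatic markers, Lyve1 was lower at 6 weeks (-0.29 ± 0.09, adjusted p = 0.0272) and 12 weeks (-0.46 ± 0.09, adjusted p = 0.000268). Of 5 smooth muscle markers, Cnn1 and Des were lower at 12 weeks (-0.38 ± 0.12 and -0.37 ± 0.13, adjusted p = 0.0143 and 0.0269). Of 6 club cell markers, Aldh1a1 was lower at 6 and 12 weeks (-0.21 and -0.27 ± 0.06, adjusted p = 0.0118 and 0.000722), and of 5 ciliated cell markers, Tppp3 was lower at 12 weeks (-0.39 ± 0.09, adjusted p = 0.000864). Krt15, 1 of 3 tested basal cell markers, was higher at 3 weeks (0.74 ± 0.17, adjusted p = 0.00273). Of 4 mesothelial markers Upk1b was lower at 6 weeks (-0.92 ± 0.26, adjusted p = 0.0101). Of 4 B cell markers Ms4a1 was lower at 6 weeks (-0.59 ± 0.14, adjusted p = 0.00334). Of 5 red cell markers Ahsp was lower at 6 weeks (-0.84 ± 0.30, adjusted p = 0.0453) and Alas2 at 12 weeks (-0.38 ± 0.12, adjusted p = 0.0222). With 1 rat left out the lymphatic and red cell counts at 6 weeks were 0 in 6 and 8 of 12 fits, and the red cell count at 12 weeks in 4 of 12. The smooth muscle count at 12 weeks was 1 in 3 of 12. Lyve1, Aldh1a1 and Ahsp lost their 6-week calls under median scaling (limma adjusted p = 0.1999, 0.3978 and 0.0882), without a change of sign.

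With Cav1 left out of the mean, the genes most like the other 7 members on levels centred within each week were Lpar3 (r = 0.91), Lhfpl6, Serinc3, Gucy1b1 and Agtr1a (r = 0.86), none of which is among the 5 most like the mean of all 8. The most opposed were Ltb (r = -0.92), Cib1, Ceacam4, Tmem45b and Slc11a2 (r = -0.89). This choice was made after the data had been seen, and the 36 arrays share treatment groups.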
